A study of Homo sapiens with 12 samples.

Results

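Interferon-stimulated genes are described here in 2 human gastric cancer cell lines grown with or without cantharidin sodium. The 47 genes were taken by symbol from a list of well-known interferon targets, and each symbol was matched to 1 Ensembl identifier of the 32269 in the count table. The list was chosen with earlier results of these data known. All 47 also passed the filter on low counts, together with 20280 genes in all. The 4 groups, of 3 libraries each, were cantharidin sodium-treated MKN1, untreated MKN1, cantharidin sodium-treated AGS and untreated AGS. MKN1 is a line labelled as a gastric adenosquamous carcinoma, and AGS a line labelled as a gastric adenocarcinoma epithelial cell. All groups were labelled wild type and grew in the same serum-containing RPMI-1640 medium, and no group received an added interferon according to the labels. Each line is a single model, the series calls its replicates biological, and the labels give neither dose nor duration. Cantharidin, the toxin of blister beetles, blocks the protein phosphatases PP2A and PP1, and cantharidin sodium is its salt.

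Interferons are secreted proteins that warn cells of viruses. Type I interferons bind the receptor chains IFNAR1 and IFNAR2, and type III interferons bind IFNLR1 and IL10RB. Both activate the kinases JAK1 and TYK2, which phosphorylate STAT2 among other factors. STAT2 joins IRF9 in the complex ISGF3, which binds the interferon-stimulated response element (ISRE) in the promoters of its targets. Interferon gamma acts through IFNGR1, IFNGR2, JAK1 and JAK2, and its targets carry another element, GAS. The induced genes encode antiviral effectors, sensors of viral RNA, the ubiquitin-like protein ISG15 and the transcription factors themselves, and tumor cells can express many of them without added interferon.

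The letters of the ISRE core, GAAANNGAAA on either strand, were found in the promoters of 22 of the 36 members that have an entry in the RefSeq table (GRCh38.p14), or 61.1%. A promoter was taken as 250 bases before to 50 bases after the start of the gene, and 3.57% of all 35116 promoters held the same letters. The shorter GAS core TTCNNNGAA was found in 8 of the 36 members (22.2%), against 7.66% of all promoters. Matches of these patterns can overlap each other, and a match is a description of letters and not a site shown to be bound. IRF7, OAS2, OASL, IFIT2, IFITM2, MX2, GBP2, USP18, SLFN5, TRIM22 and IDO1 had no entry.

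The following stretches show the core in capitals with up to 10 bases on each side, 5′ to 3′ on the strand of the gene. The capitals match the searched pattern by selection, so their likeness is not a result. The first 4 belong to genes called lower in treated MKN1 cells, and the other 4 to genes whose changes were not called in the fit of all libraries without a replicate block.
ISG15: catgcctcggGAAAGGGAAAccgaaactga
BST2: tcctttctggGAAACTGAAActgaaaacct
IFITM1: caaacagcagGAAATAGAAActtaagagaa
IFI6: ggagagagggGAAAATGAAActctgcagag
HERC5: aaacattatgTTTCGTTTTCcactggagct
IFIT1: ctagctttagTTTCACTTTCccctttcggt
IFIT3: tttaaattagTTTCACTTTCcagtttcctc
IFI44: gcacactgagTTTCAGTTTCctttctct

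The ISG15 stretch lies at chr1:1013374-1013403 on the plus strand, within the ISG15 locus but outside its exons in GENCODE 29, and its core starts 113 bases before the start of the gene. A second match overlaps it. The BST2 stretch lies at chr19:17405741-17405770 on the minus strand, where the annotation also places exons of BISPR and MVB12A. The IFITM1 stretch at chr11:313990-314019 on the plus strand lies in an exon of a longer annotated IFITM1 transcript. The IFI6 stretch at chr1:27672329-27672358 on the minus strand lies outside any exon, and its promoter holds further matches nearer to the start. The HERC5 (chr4:88457035-88457064, plus strand) and IFI44 (chr1:78649761-78649788, plus strand) stretches overlap no annotated gene. Those of IFIT1 (chr10:89392497-89392526, plus strand) and IFIT3 (chr10:89327865-89327894, plus strand) lie within the span of LIPA. In the last 4 the core reads TTTCNNTTTC because it lies on the other strand.

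Library totals ran from 28604966 to 51604215 counts, so that 3 counts stood for 0.0581 to 0.105 CPM, the count scaled to 1000000 counts of a library. That floor covers counting error only. All 6 epithelial markers reached 1 CPM, and they summed to 4890 to 6620 CPM in treated MKN1, 5360 to 6570 CPM in untreated MKN1, 4340 to 4960 CPM in treated AGS and 4700 to 5780 CPM in untreated AGS. The keratins KRT8 and KRT18 were high in every library, whereas EPCAM, CLDN4 and CLDN7 stood at 4.04 to 22.3 CPM in treated MKN1 and 7.61 to 26.6 CPM in untreated MKN1, against at least 195 CPM in AGS. The junction gene CLDN7 fell in treated MKN1 (log2 fold change −1.10 ± 0.14, adjusted p = 0.00214). Of 7 leukocyte markers 5 were in the table and 4 reached 1 CPM, all but PTPRC, the defining one, which reached at most 0.551 CPM. The leukocyte markers summed to 21.9 to 37.1 CPM in treated MKN1 and 40.8 to 56.9 CPM in untreated MKN1, and to 1030 to 1460 CPM in treated AGS and 1050 to 1580 CPM in untreated AGS, nearly all of it the lysozyme gene LYZ. Most of the MKN1 sum was CD68, with 31, 23.5 and 17.3 CPM in treated MKN1 and 40.1, 48.2 and 36.4 CPM in untreated MKN1 (−0.80 ± 0.22, adjusted p = 0.0478). Of the exon bases of CD68, 81.7% also belong to other annotated exons on its strand, so its reads may be split or shared. The leukocyte sums of the MKN1 groups did not overlap, and their part in the MKN1 results was not tested. The 4 squamous markers (TP63, KRT5, KRT14 and KRT6A) summed to 1990 to 2890 CPM in treated MKN1 and 1460 to 2820 CPM in untreated MKN1, but to 0.542 to 0.608 CPM in treated AGS and 0.394 to 0.714 CPM in untreated AGS. Of the 5 erythroid markers, HBD and ALAS2 stayed under 1 CPM throughout. The erythroid sum was 0, 0.0774 and 0 CPM in treated AGS, against 24.5, 11.2 and 8.75 CPM in untreated AGS, with 3.58 to 4.32 CPM in treated MKN1 and 3.55 to 8.2 CPM in untreated MKN1. The part of these globin reads in the AGS results was not tested. The fibroblast and endothelial markers, of which COL1A2, PECAM1 and CDH5 stayed under 1 CPM, summed to 9.07 to 12 CPM in treated MKN1, 12.5 to 15.8 CPM in untreated MKN1, 11.8 to 14.7 CPM in treated AGS and 20.4 to 29 CPM in untreated AGS, and their part was not tested either.

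Without treatment, MKN1 carried higher levels of most members than AGS. In edgeR's quasi-likelihood test with Benjamini-Hochberg adjustment over all tested genes and a threshold of 0.05, 29 members (61.7%) were higher in untreated MKN1 than in untreated AGS, where 34.9% of all tested genes were, and 9 (19.1%) were lower, where 31.4% of all were. The median log2 difference, MKN1 minus AGS, was 1.11 over the members and 0.04 over all tested genes. The lines differ in origin and in 13452 called genes, so that line and any other difference between the cultures cannot be told apart.

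**Figure D1:**
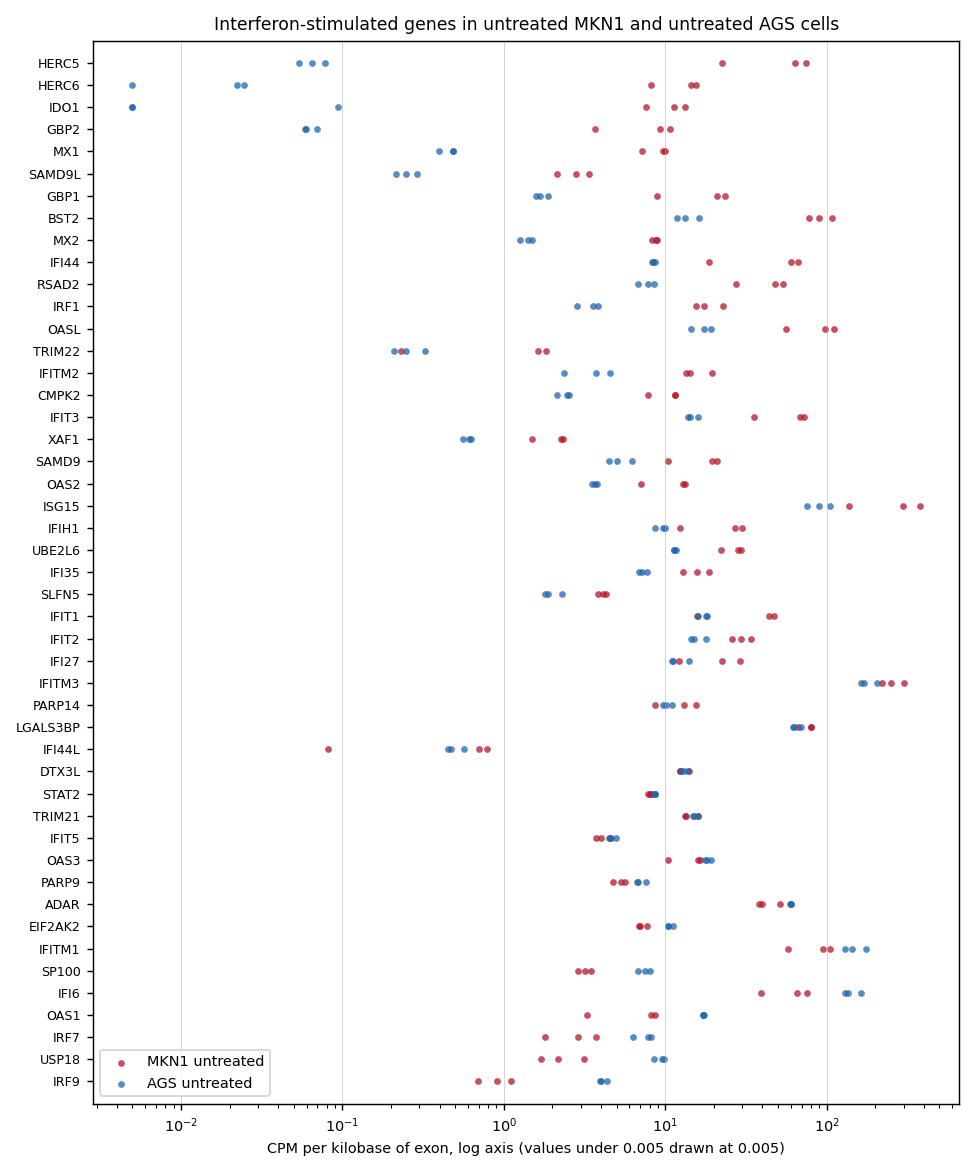
Expression of the 47 members in untreated MKN1 (red) and untreated AGS (blue), in CPM per kilobase of exon on a log axis, with 1 point for each library and genes ordered by the ratio of the lines. HERC5, HERC6, IDO1 and GBP2 sit far to the left in AGS, below 1 CPM on average, and IRF9, USP18, IRF7 and OAS1 at the bottom are lower in MKN1.

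The widest gaps were in genes that AGS hardly expressed. HERC6, a HECT-type ubiquitin ligase, had 89.4, 84.2 and 47.3 CPM in untreated MKN1, against 0, 0.143 and 0.128 CPM in untreated AGS, a log2 difference of 9.77 ± 0.56 (approximate SE). HERC5, the ligase that attaches ISG15 to newly made proteins, had 358, 306 and 108 CPM in untreated MKN1 and 0.256, 0.371 and 0.308 CPM in untreated AGS (9.70 ± 0.63). The 2 genes are neighbours on chromosome 4 (HERC6 at chr4:88378739-88443111 and HERC5 at chr4:88457117-88506163, both on the plus strand), and their AGS levels rest on 10 counts of HERC6 and 38 of HERC5 over the 3 untreated libraries.

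IDO1, which starts the breakdown of tryptophan, had 36.9, 43.2 and 24.9 CPM in untreated MKN1. In untreated AGS it had 0, 0 and 0.308 CPM, all 12 counts coming from replicate 3. Its fitted difference of 8.44 ± 0.77 therefore rests on that library and was 13.26 without it. GBP2, a guanylate-binding protein, had 67.1, 58.2 and 22.9 CPM in untreated MKN1 and 0.374, 0.371 and 0.436 CPM in untreated AGS (6.96 ± 0.48). MX1, a dynamin-like GTPase that blocks influenza viruses, had 83.4, 85.6 and 61.6 CPM in untreated MKN1 and 3.44, 4.17 and 4.16 CPM in untreated AGS (4.29 ± 0.26). SAMD9L, an antiviral and growth-restraining factor, had 24.1, 20 and 15.3 CPM in untreated MKN1 and 1.77, 2.08 and 1.54 CPM in untreated AGS (3.46 ± 0.42). The adjusted p of these 6 differences lay between 6.92e-09 and 9.11e-06, and for each gene every MKN1 library lay above every AGS library.

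The members that were lower in MKN1 included the regulators IRF9, USP18 and IRF7. IRF9, the DNA-binding subunit of ISGF3, had 4.21, 3.43 and 2.63 CPM in untreated MKN1 and 14.9, 15.1 and 16.6 CPM in untreated AGS, a log2 difference of −2.18 ± 0.19 (adjusted p = 4.07e-07). Of its annotated exon bases, 48.4% also belong to AL136295.5 on the same strand, and the sources do not say how reads there were assigned. USP18, which removes ISG15 from proteins and dampens receptor signalling, had 4.62, 6.71 and 3.65 CPM in untreated MKN1 and 18.2, 21 and 20.2 CPM in untreated AGS (−1.99 ± 0.30). IRF7, which drives interferon genes, had 7.57, 9.84 and 4.75 CPM in untreated MKN1 and 16.5, 20.7 and 21.6 CPM in untreated AGS (−1.41 ± 0.22).

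OAS1, which makes the messenger that activates the nuclease RNase L, had 40.7, 42.8 and 16.3 CPM in untreated MKN1 and 85.1, 86.8 and 85.4 CPM in untreated AGS (−1.37 ± 0.30). Its relative OAS2 went the other way at 1.61 ± 0.31. IFI6, a mitochondrial and endoplasmic reticulum protein, had 56.6, 65.7 and 33.9 CPM in untreated MKN1 and 113, 117 and 142 CPM in untreated AGS (−1.25 ± 0.23), and SP100, a nuclear body protein, 43.8, 40.1 and 36.3 CPM in untreated MKN1 and 94.7, 101 and 85.9 CPM in untreated AGS (−1.23 ± 0.17). STAT2 had 49.1, 47.6 and 49.9 CPM in untreated MKN1 and 53.1, 52.5 and 52 CPM in untreated AGS, and its difference of −0.10 ± 0.13 did not pass (adjusted p = 0.491). IRF1, a factor induced strongly by interferon gamma, was higher in MKN1 at 120, 135 and 177 CPM, against 22.1, 27.9 and 29.7 CPM in AGS (2.44 ± 0.17).

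The order of levels also differed between the lines. Per kilobase of exon, ISG15 (271 CPM per kb) and IFITM3 (258 CPM per kb), a membrane protein that hinders virus entry, led in untreated MKN1, and ISG15 there ran from 129 to 357 CPM, so that its place beside IFITM3 at 298 to 408 CPM lay within the spread of the libraries. In untreated AGS the leaders were IFITM3 (180 CPM per kb), IFITM1 (150 CPM per kb) and IFI6 (143 CPM per kb), with ISG15 at 90.3 CPM per kb. Exons of IFITM1 and IFITM2 overlap in the annotation (32.5% and 22.7% of their bases) and the IFITM genes are close paralogs, so their split is uncertain. At the lower end, IFI44L, a relative of IFI44, had 0.522 CPM per kb in untreated MKN1. By CPM, 17 members reached 100 in untreated MKN1 and 8 in untreated AGS.

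Of the 5 interferon genes tested, 4 were higher in untreated MKN1 than in untreated AGS and 1 was lower. The type III interferon IFNL1 had 44.7, 51.6 and 23 CPM in untreated MKN1 and 2.22, 1.74 and 2.15 CPM in untreated AGS (log2 difference 4.28 ± 0.48). IFNL2 and IFNL3 differed by 4.40 ± 0.49 and 4.35 ± 0.47, and IFNB1 by 1.84 ± 0.45, with 2.37 to 3.57 CPM in untreated MKN1 against 0.591 to 1.03 CPM in untreated AGS. IFNL2 and IFNL3 are near-identical copies, so their reads may be split or shared. IFNE, an interferon of mucosal epithelium, was lower, at 0.214 to 1.53 CPM in untreated MKN1 against 4.65 to 4.97 CPM in untreated AGS (−2.40 ± 0.48). Of 36 pathway genes listed, 35 were tested, 19 (54.3%) were higher in MKN1, where 34.9% of all tested genes were, and 7 (20%) were lower, where 31.4% of all were. Among the higher ones were RIGI, the sensor of viral RNA (2.72 ± 0.46), and STING1, the adaptor of DNA sensing, which had 29.2 to 46.9 CPM in untreated MKN1 against 0.514 to 0.65 CPM in untreated AGS (6.02 ± 0.24). The sensors and adaptors did not move together, since 6 of the 13 were higher and 4 lower. Mean CPM was lower in untreated MKN1 than in untreated AGS for MAVS (137 against 245) and TBK1 (31.8 against 62.3). The same held for IRF3 (67.6 against 118) and CGAS (35.4 against 48.5).

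The MKN1 libraries differed much more among themselves than the AGS libraries. Among members with a mean of at least 1 CPM, the median SD of log2 (CPM + 0.5) over replicates was 0.511 in treated MKN1 and 0.369 in untreated MKN1, against 0.219 and 0.213 for all genes at that level. It was 0.121 in treated AGS and 0.115 in untreated AGS, against 0.095 and 0.1 for all genes. Replicate 3 was the lowest of the 3 libraries for 38 of 47 members (80.9%) in treated MKN1, where 39% of all genes had their lowest value, and for 37 of 47 (78.7%) in untreated MKN1, where 41.9% did. In AGS, with its smaller spread, replicate 1 was most often the lowest. It was so for 28 of 43 members (65.1%) in treated AGS, where 39% of all genes had their lowest value. In untreated AGS it was so for 29 of 43 (67.4%), where 27.4% of all did. The untreated MKN1 replicate 3 also stood apart over all genes, with Pearson correlations of 0.9793 and 0.9813 with the other two untreated MKN1 libraries, which correlated at 0.9932.

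TRIM22, an antiviral ubiquitin ligase, shows the spread: it had 8.89, 1.44 and 0.411 CPM in treated MKN1 and 11, 9.88 and 1.38 CPM in untreated MKN1. IFI44L likewise had 6.31, 1.18 and 0.514 CPM in treated MKN1 and 8.01, 7.18 and 0.827 CPM in untreated MKN1. Summed over the members, CPM came to 3834, 3754 and 2573 in treated MKN1, against 5189, 5313 and 3611 in untreated MKN1. The sums were 2996, 3397 and 3059 in treated AGS and 2750, 2940 and 2996 in untreated AGS. The squamous sum was also lowest in replicate 3 of each MKN1 group, at 1990 CPM in treated and 1460 CPM in untreated cells, and its part in the results was not tested. Whatever sets replicate 3 apart is not given in the labels, and the calls and medians in MKN1 are also given without the untreated replicate 3. Without it, 28 members were higher and 9 lower in untreated MKN1 than in untreated AGS, with a median log2 difference of 1.24.

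**Figure D2:**
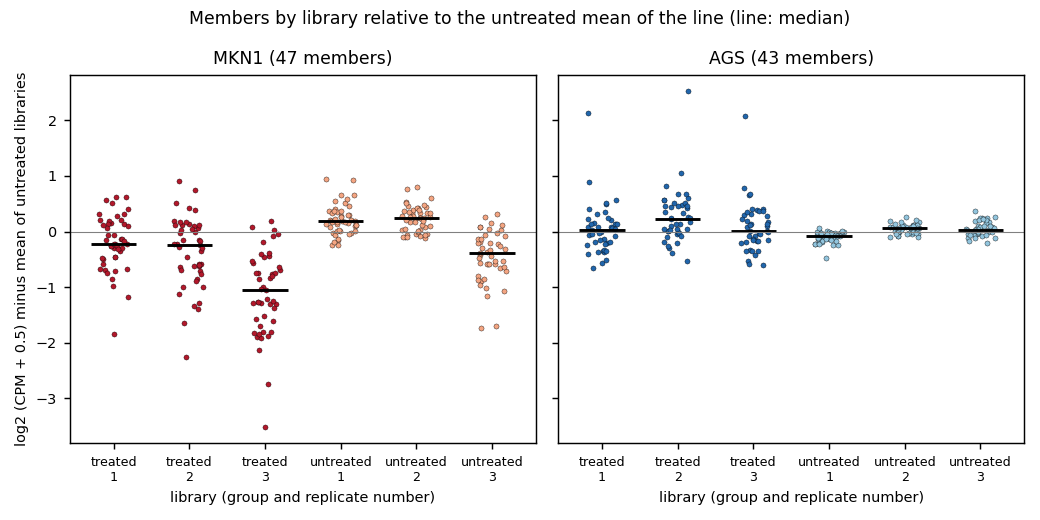
Level of each member by library, as log2 (CPM + 0.5) minus the mean of the untreated libraries of the line (points), with the median per library (bars), for members with at least 1 CPM in untreated cells. Medians were −0.22, −0.24 and −1.06 in treated MKN1 and 0.18, 0.24 and −0.40 in untreated MKN1, and lay between −0.08 and 0.22 in all AGS libraries.

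Treated MKN1 cells had lower levels of several interferon-stimulated genes than untreated MKN1 cells, and none was called higher. The test called 8 members (17%) lower in treated MKN1, where 3.9% of all tested genes were called lower, and 0 members higher, where 2.8% of all were. Only SP100 was higher at an unadjusted p under 0.05, and DESeq2 also called 0 higher, while 22 members were lower at an unadjusted p under 0.05. The fitted change was negative for 42 members and positive for 5, with a median log2 fold change of −0.495 over the members and 0.006 over all tested genes. Paired by replicate number, the median change over the members was −0.34, −0.44 and −0.65, and 37, 37 and 43 of the 47 were lower. In 12 members (25.5%) all treated MKN1 libraries lay below all untreated ones, where 11.4% of all tested genes did. Only MX2 showed the opposite, where 9.95% of all genes did. The fit of all libraries uses 1 estimate of the spread per gene for the 4 groups, although the members varied more in MKN1 than in AGS. With the MKN1 libraries fitted alone, 0 members were called lower, where 0.157% of all genes tested there were. In bulk RNA, fewer cells that express a gene and less RNA per cell cannot be told apart.

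**Figure D3:**
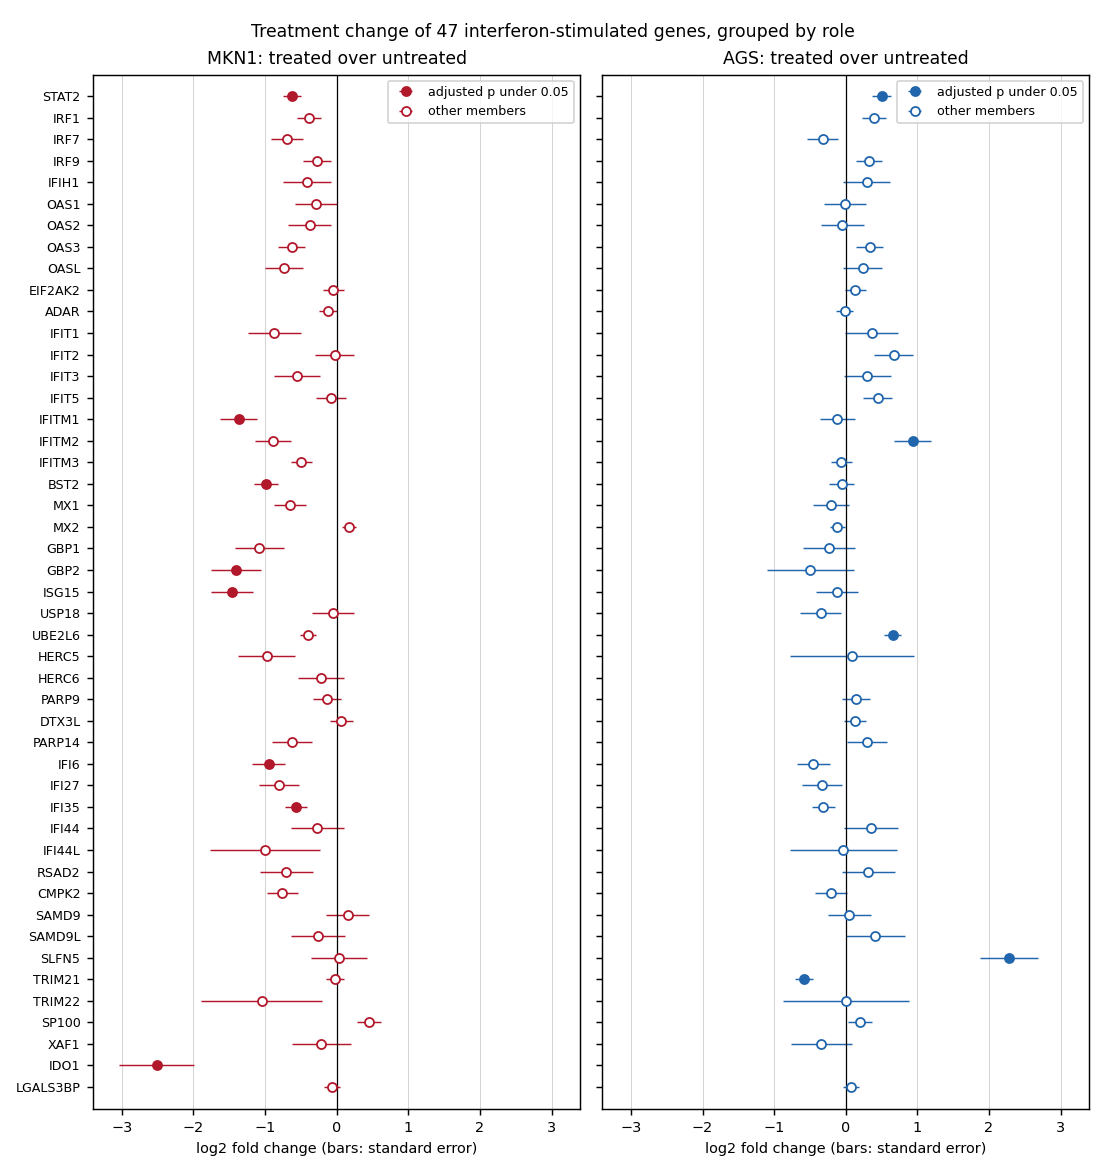
Log2 fold change of treated over untreated cells for the 47 members in MKN1 (left) and for all but IDO1 and HERC6 in AGS (right), grouped by role from transcription factors at the top to IDO1 and LGALS3BP at the bottom. Bars are approximate standard errors derived from the F statistic of the edgeR test, and filled points passed an adjusted p of 0.05. The 8 filled points in MKN1 lie left of 0, and 4 of the 5 in AGS lie right of it.

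By size, IDO1 fell most among the called members. It had 9.16, 6.72 and 2.54 CPM in treated MKN1, against 36.9, 43.2 and 24.9 CPM in untreated MKN1, a log2 fold change of −2.51 ± 0.52 (adjusted p = 0.0165). The highest treated library lay well below the lowest untreated one. ISG15, the ubiquitin-like modifier, had 104, 108 and 66.6 CPM in treated MKN1 and 281, 357 and 129 CPM in untreated MKN1 (−1.46 ± 0.29, adjusted p = 0.0145). Its groups did not overlap, although untreated replicate 3 came close to the treated libraries. GBP2 had 22.5, 22.1 and 11.5 CPM in treated MKN1 and 67.1, 58.2 and 22.9 CPM in untreated MKN1 (−1.40 ± 0.35, adjusted p = 0.0352), with untreated replicate 3 only just above the highest treated library.

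Of the 4 membrane restriction factors, 2 were called lower. IFITM1, which acts at the cell surface against entering viruses, had 49.7, 35.3 and 23.7 CPM in treated MKN1 and 103, 114 and 62.1 CPM in untreated MKN1 (−1.37 ± 0.26, adjusted p = 0.0109). BST2, or tetherin, which holds budding virions on the membrane, had 62.6, 50.2 and 41.6 CPM in treated MKN1 and 100, 120 and 86.4 CPM in untreated MKN1 (−0.99 ± 0.17, adjusted p = 0.00738). Both groups were apart in both genes. IFITM2 (−0.89 ± 0.25, adjusted p = 0.0516) and IFITM3 (−0.495 ± 0.15, adjusted p = 0.0623) did not pass, and their libraries did not overlap either. BST2 lies at chr19:17402939-17405648 on the minus strand.

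Of the 5 IFI genes, 2 were called lower, and the median log2 fold change over the 5 was −0.80. IFI6 had 35.9, 20.4 and 24.3 CPM in treated MKN1 and 56.6, 65.7 and 33.9 CPM in untreated MKN1 (−0.95 ± 0.23, adjusted p = 0.0328). Here the groups overlapped, because untreated replicate 3 lay below treated replicate 1. IFI35, which binds other interferon-induced proteins, had 24.8, 19.7 and 18 CPM in treated MKN1 and 30.8, 36.6 and 25.4 CPM in untreated MKN1 (−0.57 ± 0.16, adjusted p = 0.0489), the call nearest to the threshold. STAT2 was the called transcription factor, with 39.6, 26.7 and 29 CPM in treated MKN1 and 49.1, 47.6 and 49.9 CPM in untreated MKN1 (−0.62 ± 0.13, adjusted p = 0.017). Its untreated libraries, replicate 3 included, lay close together and above every treated one.

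**Figure D4:**
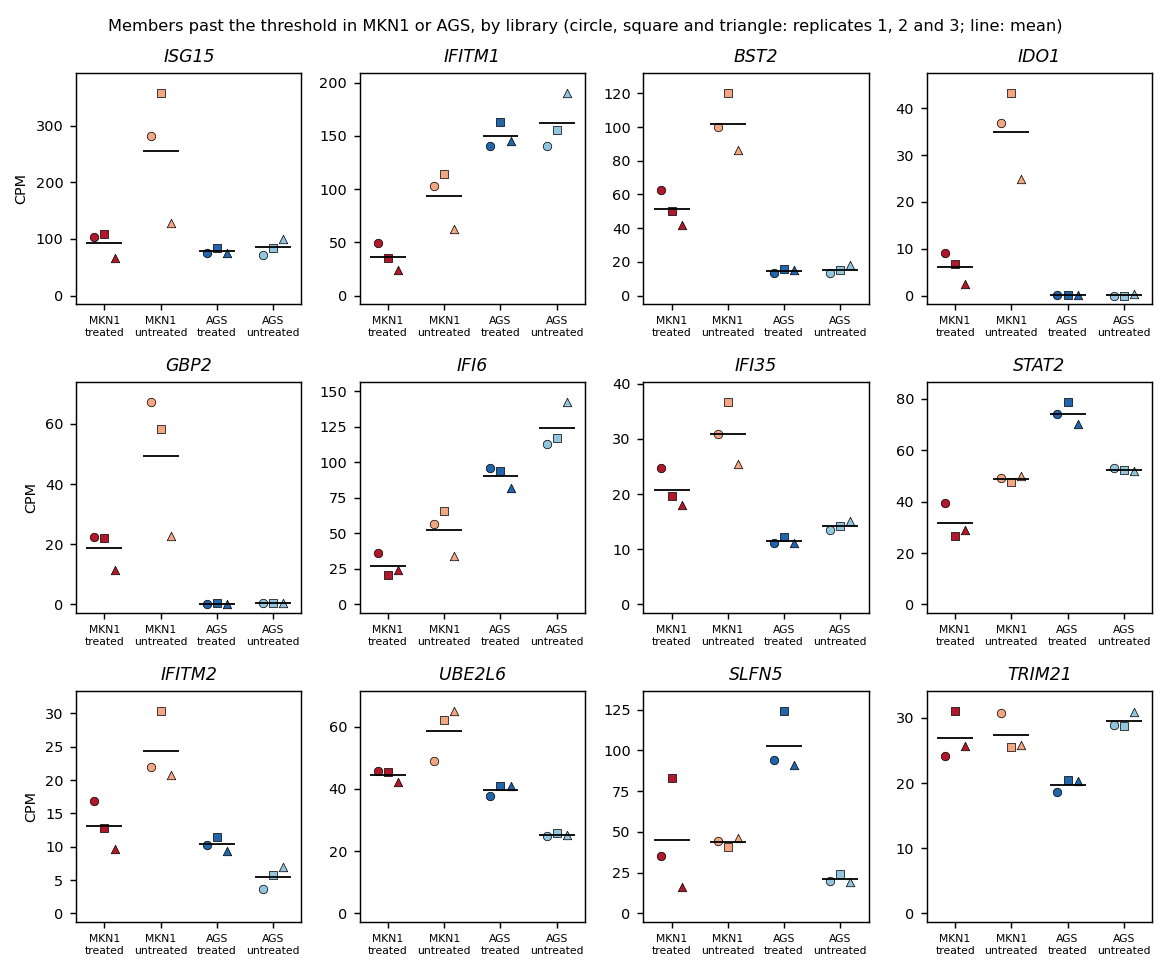
CPM in each library of the 12 members that passed the threshold in MKN1 or AGS, with group means as lines and replicates 1, 2 and 3 as circles, squares and triangles. For ISG15 and GBP2 the triangle of untreated MKN1 (129 and 22.9 CPM) sits far below the other two untreated MKN1 libraries, whereas for STAT2 and BST2 the untreated MKN1 libraries stay together.

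The other roles held no called member in MKN1. The 7 genes of RNA sensing and oligoadenylate synthesis (IFIH1, OAS1, OAS2, OAS3, OASL, EIF2AK2 and ADAR) had a median log2 fold change of −0.38. The largest of them was OASL, at −0.74 ± 0.27 (adjusted p = 0.118). The 4 IFIT genes, whose products bind foreign RNA ends, had a median of −0.31, ranging between −0.87 ± 0.37 for IFIT1 and −0.03 ± 0.27 for IFIT2. The ADP-ribosylation group of PARP9, DTX3L and PARP14 had a median of −0.13. Among the factors, IRF9 had 2.82, 3.35 and 2.34 CPM in treated MKN1 and 4.21, 3.43 and 2.63 CPM in untreated MKN1 (−0.27 ± 0.19, adjusted p = 0.432), with overlapping groups. IRF7 had 4.58, 4.46 and 4.63 CPM in treated MKN1 and 7.57, 9.84 and 4.75 CPM in untreated MKN1 (−0.69 ± 0.22, adjusted p = 0.0824), and IRF1 had 89.1, 117 and 125 CPM in treated MKN1 and 120, 135 and 177 CPM in untreated MKN1 (−0.39 ± 0.16, adjusted p = 0.179).

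The number of members called lower in MKN1 depended on single libraries. The share of all tested genes called lower moved with it. It was 19 members (40.4%) without untreated replicate 3, where 7.6% of all genes were called lower, and 15 (31.9%) without treated replicate 1, where 3.37% were. It was 6 (12.8%) without untreated replicate 1, where 2.44% of all were, and 5 (10.6%) without treated replicate 3, where 3.23% were. It was 3 (6.4%) without treated replicate 2, where 1.87% of all were, and 2 (4.3%) without untreated replicate 2, where 1.11% were. Only BST2 and IFITM1 kept their call whichever MKN1 library was left out (adjusted p up to 0.0327 and 0.0462), and without untreated replicate 3 all 8 called members passed, with adjusted p between 0.000301 and 0.0139. The median log2 fold change over the members was then −0.66, and IRF7 (adjusted p = 0.00386), OAS3 (0.00686) and IFITM2 (0.0265) passed as well. Without untreated replicate 2, ISG15 had an adjusted p of 0.0571, and without untreated replicate 2 or treated replicate 2 IDO1 (0.052 to 0.0702) and STAT2 (0.052 to 0.0564) did not pass. GBP2 (0.0717 to 0.121), IFI6 (0.0773 to 0.131) and IFI35 (0.1 to 0.183) did not pass without untreated replicates 1 or 2 or treated replicates 2 or 3. Fitted on the 6 MKN1 libraries alone, edgeR called 0 members and 34 genes in all, with 18 members lower at an unadjusted p under 0.05. DESeq2 on all libraries called 17 members lower, where 7.1% of all genes were, but not IDO1 (adjusted p = 0.0783). With no filter on low counts GBP2 (0.0517) and IFI35 (0.067) did not pass, and with library totals IFI35 did not (0.0692).

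In AGS, few members were called in the fit of all libraries, and more with AGS fitted alone, as given below. The fit of all libraries takes its spread from the more variable MKN1 libraries as well. The test called 4 members (8.5%) higher in treated AGS, where 9.21% of all tested genes were, and 1 member (2.1%) lower, where 11.6% of all were. The share called higher was near that of all genes. Over the 43 members with at least 1 CPM in untreated AGS, the median log2 fold change was 0.07, with 24 positive and 19 negative, and over all 13793 genes at that level it was −0.01. Paired by replicate number, the medians over the 43 members were 0.11, 0.12 and 0.08. All treated AGS libraries lay above all untreated ones in 15 members (31.9%), where 25.6% of all genes did, and below them in 6 (12.8%), where 26.8% did.

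SLFN5, a Schlafen family member that acts in the nucleus, rose most. It had 94.3, 124 and 90.9 CPM in treated AGS and 20, 24.4 and 19.4 CPM in untreated AGS, a log2 fold change of 2.28 ± 0.41 (adjusted p = 0.00296). The groups lay far apart, with log2 changes of 2.21, 2.32 and 2.20 by replicate number. UBE2L6, the conjugating enzyme that carries ISG15 to its ligase, had 37.8, 40.8 and 40.8 CPM in treated AGS and 24.9, 25.8 and 25.1 CPM in untreated AGS (0.65 ± 0.11, adjusted p = 0.00259). ISG15 itself had 75.3, 83.1 and 75.8 CPM in treated AGS and 71.1, 84.3 and 99.4 CPM in untreated AGS (−0.12 ± 0.29, adjusted p = 0.801), with overlapping groups.

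STAT2 had 74, 78.6 and 70.2 CPM in treated AGS and 53.1, 52.5 and 52 CPM in untreated AGS (0.499 ± 0.13, adjusted p = 0.0174). IFITM2 had 10.2, 11.5 and 9.42 CPM in treated AGS and 3.64, 5.74 and 6.98 CPM in untreated AGS (0.93 ± 0.26, adjusted p = 0.0227). In both genes the groups were apart. TRIM21, a ubiquitin ligase that binds antibodies inside cells, was the member that fell, with 18.6, 20.4 and 20.3 CPM in treated AGS and 28.9, 28.7 and 30.9 CPM in untreated AGS (−0.58 ± 0.13, adjusted p = 0.00779).

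The other factors of AGS did not pass in the fit of all libraries. IRF9 had 18.1, 20 and 20.3 CPM in treated AGS and 14.9, 15.1 and 16.6 CPM in untreated AGS (0.32 ± 0.18, adjusted p = 0.22), and IRF1 had 33.8, 36.9 and 34.5 CPM in treated AGS and 22.1, 27.9 and 29.7 CPM in untreated AGS (0.40 ± 0.17, adjusted p = 0.107), each with groups apart. IRF7 had 14.6, 17 and 15.4 CPM in treated AGS and 16.5, 20.7 and 21.6 CPM in untreated AGS (−0.32 ± 0.21, adjusted p = 0.303), with overlap. With the AGS libraries fitted alone in edgeR, IRF9 (adjusted p = 0.0142), IRF1 (0.0115) and IRF7 (0.0435) each passed. With the replicate number as a block, IRF1 passed as well (0.031). No treatment fold is given for IDO1 or HERC6 in AGS, which were near the floor in all 6 libraries.

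SLFN5, UBE2L6 and TRIM21 kept their calls whichever AGS library was left out (adjusted p up to 0.0192, 0.0157 and 0.0397). STAT2 lost its call without untreated replicates 1, 2 or 3 or treated replicates 1 or 2 (0.053 to 0.0732), and IFITM2 without untreated replicates 1 or 2 or treated replicates 1 or 2 (0.0546 to 0.0879), so that 2 members were called higher without any of these 4. Fitted on the 6 AGS libraries alone, 14 members (31.1%) were called higher and 6 (13.3%) lower among the 45 that passed the filter there, where 23.3% of all genes tested were called higher and 25% lower.

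The treatment effects of the lines were compared directly by the contrast of the MKN1 effect minus the AGS effect. It was below 0 past the threshold in 9 members (19.1%), where 7.3% of all tested genes were, and above 0 in 0 members, where 8.38% of all were. TRIM21 alone was above 0 at an unadjusted p under 0.05, and DESeq2 called 1 member. The median of the difference was −0.60 over the 43 members with at least 1 CPM in untreated AGS and 0.02 over all genes at that level. STAT2 showed the 2 directions within 1 gene, a fall in MKN1 and a rise in AGS, and its difference was −1.12 ± 0.18 (adjusted p = 0.00207).

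UBE2L6 differed by −1.055 ± 0.16 (adjusted p = 0.00145). It had 45.7, 45.4 and 42.1 CPM in treated MKN1 and 48.9, 62 and 64.9 CPM in untreated MKN1 (−0.40 ± 0.11, adjusted p = 0.0529), so that its libraries in MKN1 did not overlap although the fall did not pass. IFITM2 differed by −1.83 ± 0.36 (adjusted p = 0.00528), with 16.9, 12.8 and 9.64 CPM in treated MKN1 and 22, 30.3 and 20.8 CPM in untreated MKN1. SLFN5 differed by −2.25 ± 0.56 (adjusted p = 0.0175). In MKN1 it had 35, 82.9 and 16.5 CPM in treated cells and 44.4, 40.8 and 46 CPM in untreated cells, so that the treated MKN1 libraries lay on both sides of the untreated ones (0.03 ± 0.39).

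BST2 differed by −0.93 ± 0.24 (adjusted p = 0.0214), with 13.3, 15.6 and 15.4 CPM in treated AGS and 13.2, 14.9 and 18.1 CPM in untreated AGS (−0.06 ± 0.17). IFITM1 differed by −1.25 ± 0.36 (adjusted p = 0.0318), with 141, 163 and 145 CPM in treated AGS and 141, 156 and 190 CPM in untreated AGS. ISG15 differed by −1.34 ± 0.41 (adjusted p = 0.0434). OAS3, the largest oligoadenylate synthetase, differed by −0.96 ± 0.27 (adjusted p = 0.0283), with 95.8, 74 and 57.3 CPM in treated MKN1 against 131, 135 and 85.2 CPM in untreated MKN1, and 179, 203 and 188 CPM in treated AGS against 149, 159 and 146 CPM in untreated AGS. IRF1 differed by −0.785 ± 0.23 (adjusted p = 0.0387), and 22% of its exon bases lie opposite other annotated exons, from which unstranded reads cannot be told apart.

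STAT2, UBE2L6, IFITM2 and SLFN5 kept the call of a difference whichever of the 12 libraries was left out (adjusted p up to 0.00814, 0.00653, 0.0164 and 0.0463). BST2 lost it without any of 4 AGS libraries (untreated replicates 1 and 2, treated replicates 2 and 3; 0.0508 to 0.0599). IFITM1 and ISG15 lost it without any of 9 libraries (0.0536 to 0.0794 and 0.0586 to 0.101), OAS3 without any of 8 (0.0509 to 0.0675) and IRF1 without any of 7 (0.0616 to 0.0991). With no filter on low counts IRF1 (0.0749) and ISG15 (0.0593) lost the call of a difference, and with library totals IRF1 did (0.0614). Without untreated MKN1 replicate 3, 15 members (31.9%) were below 0 past the threshold, where 10% of all genes were, and without untreated MKN1 replicate 2 it was 5 (10.6%), where 5.63% were. Without untreated AGS replicates 1 or 2 or treated AGS replicates 2 or 3 it was 4 (8.5%), where between 4.83% and 5.12% of all were.

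Upstream of the members, few genes passed the test in the fit without a replicate block. Of the 35 pathway genes tested, 1 (2.86%) was called higher and 3 (8.57%) lower in treated MKN1, where 2.8% and 3.9% of all tested genes were. In treated AGS 4 (11.4%) were called higher, near the 9.21% of all tested genes, and 1 (2.86%) lower, where 11.6% of all were. No interferon gene passed in either line. IFNL1 had 18.8, 48.3 and 13.1 CPM in treated MKN1 and 44.7, 51.6 and 23 CPM in untreated MKN1 (−0.57 ± 0.41, adjusted p = 0.437), and IFNB1 had 2.12, 7.81 and 2.54 CPM in treated MKN1 and 3.57, 2.37 and 2.85 CPM in untreated MKN1 (0.50 ± 0.42, adjusted p = 0.518), with overlap in both. IFNA1 reached at most 0.374 CPM and was not tested.

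TYK2, a kinase of the type I and type III receptors, fell in MKN1. It had 48.4, 53.7 and 43 CPM in treated MKN1 and 80, 87.1 and 69.6 CPM in untreated MKN1 (−0.71 ± 0.11, adjusted p = 0.00519). In AGS it had 43, 42.6 and 42.5 CPM in treated cells and 40, 42.7 and 42.9 CPM in untreated cells (0.03 ± 0.11), and the effects differed by −0.74 ± 0.16 (adjusted p = 0.00789). IL10RB, the shared chain of the type III receptor, fell to 28, 29.1 and 27.9 CPM in treated MKN1, against 38.7, 38.2 and 38.6 CPM in untreated MKN1 (−0.44 ± 0.09, adjusted p = 0.0191), and its effects differed by −0.73 ± 0.13 (adjusted p = 0.00401). Of its exon bases, 38.1% also belong to AP000295.1. IFNGR1, the ligand-binding chain for interferon gamma, had 110, 130 and 82.5 CPM in treated MKN1 and 185, 162 and 144 CPM in untreated MKN1 (−0.605 ± 0.15, adjusted p = 0.0323).

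In AGS the kinases JAK2 and JAK1 rose. JAK2 had 19.2, 21.7 and 20.1 CPM in treated AGS and 10.8, 10.7 and 12.8 CPM in untreated AGS (0.83 ± 0.16, adjusted p = 0.00451), and JAK1 had 189, 227 and 188 CPM in treated AGS and 142, 154 and 133 CPM in untreated AGS (0.49 ± 0.12, adjusted p = 0.0155). IFNGR2 rose with them at 0.498 ± 0.13 (adjusted p = 0.0167). SOCS1, a feedback inhibitor of the kinases, had 0.638, 0.361 and 0.28 CPM in treated AGS and 0.748, 0.971 and 0.898 CPM in untreated AGS (−1.03 ± 0.33, adjusted p = 0.0436). In MKN1 both genes moved the same way without passing, IFNGR2 by 0.356 (adjusted p = 0.114) and SOCS1 by −0.889 (0.116). Their effects did not differ between the lines past the threshold (−0.142, adjusted p = 0.634, and 0.142, adjusted p = 0.867). IFI16, a sensor of nuclear DNA, rose in both lines, by 0.75 ± 0.14 in MKN1 (adjusted p = 0.0112) and 0.85 ± 0.14 in AGS (adjusted p = 0.00215). TICAM1, the adaptor of TLR3, passed only the test of the difference (0.91 ± 0.24, adjusted p = 0.0245), at 0.498 ± 0.17 in MKN1 and −0.42 ± 0.17 in AGS.

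The log2 fold change of IFNAR1 was 0.04 ± 0.12 in each line, and that of IFNAR2 −0.17 ± 0.13 in MKN1 and −0.08 ± 0.13 in AGS, and none passed. IFNAR2 shares 44.2% of its exon bases with AP000295.1 or another gene on its strand.

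**Figure D5:**
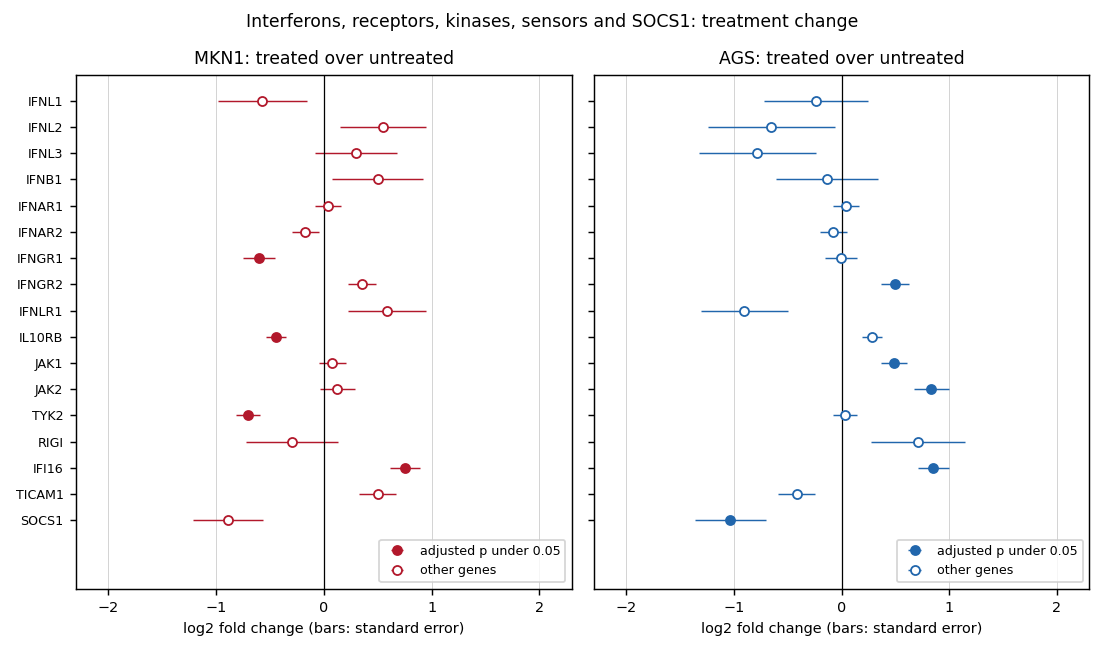
Log2 fold change of treated over untreated cells for 17 pathway genes in MKN1 (left) and AGS (right), with approximate standard errors, filled where the adjusted p was under 0.05. TYK2, IFNGR1 and IL10RB are filled left of 0 in MKN1, and JAK1, JAK2 and IFNGR2 right of 0 in AGS, while IFI16 is filled right of 0 in both.

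TYK2 kept its call in MKN1 whichever library was left out (adjusted p up to 0.0213), but the fit of the MKN1 libraries alone ended it (0.089) along with those of IFI16 (0.109), IFNGR1 (0.176) and IL10RB (0.182). JAK2 (up to 0.025) and IFI16 (up to 0.0148) kept their calls in AGS whichever AGS library was left out. The fall of IL10RB and the rise of IFI16 in MKN1 did not pass without untreated replicate 2 (0.0616 and 0.0618), and that of IFNGR1 did not without untreated replicates 1 or 2 or treated replicate 3 (0.0538 to 0.0982) or with library totals (0.0608). Without untreated MKN1 replicate 3 these 4 calls held (adjusted p between 0.000841 and 0.0108), and IFNGR2 (0.50, adjusted p = 0.0118) passed in MKN1 as well. In AGS, JAK1 did not pass without untreated replicates 1 or 3 or treated replicate 2 (0.0559 to 0.0788), IFNGR2 without untreated replicate 1 or treated replicates 2 or 3 (0.0535 to 0.0782), and SOCS1 without any library but treated replicate 1 (0.0692 to 0.157). SOCS1 was not called by DESeq2 (0.0503) or with no filter on low counts (0.0698) either. The difference of TICAM1 did not pass without any of 5 libraries (0.0506 to 0.0685).

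Set beside the promoter letters, 4 of the 6 members called lower in MKN1 that have a promoter entry held the ISRE core (ISG15, BST2, IFITM1 and IFI6), and STAT2 and IFI35 did not. That share (66.7%) is near the 61.1% of all members with an entry. Of the called AGS rises, STAT2 and UBE2L6 have an entry and neither held it. The median log2 fold change in MKN1 was −0.62 over the 22 members with the core and −0.28 over the 14 without it. HERC5, IFIT1, IFIT3 and IFI44, which hold the core, had MKN1 changes of −0.975 ± 0.40, −0.87 ± 0.37, −0.55 ± 0.32 and −0.27 ± 0.37, none of them called in that fit. These medians are descriptions of a few genes that share libraries and were not tested.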

How the data were processed

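The authors deposited raw counts per gene for 12 libraries, not normalized. Per the labels' protocols, TRIzol-extracted RNA went into NEBNext Ultra libraries, a kit that does not mark strand. HISAT2 2.0.4 and the build hg38/GRCh38 are named in the submitters' processing notes. Counting tool and annotation: not given in the sources used here. Symbols came from a table of current names, and positions from GENCODE 29.

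Counts were tested with edgeR 4.0.16 in R 4.3.3 (filterByExpr, TMM factors, 4 group means, quasi-likelihood test, Benjamini-Hochberg adjustment over 20280 genes, threshold 0.05). CPM used TMM-scaled totals. Beside a log2 value, ± is an approximate standard error, the absolute log2 value divided by the square root of the F statistic of the test. It is rough where a group is near the floor. The script was checked on simulated data. The members and lists were chosen with earlier results of these data known. Named were members and pathway genes past the threshold in a treatment contrast or their difference, the 6 largest differences between lines in each direction, and a few signalling genes by name. Pathway genes were named further where levels are given. Alternatives were DESeq2 1.42.0 and its size factors, library totals, other filters, each line alone, the replicate number as a block, and each library left out. A gene that the rule names is not reported here.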

Additional observations from a re-analysis of the deposited data

Results flagged for a closer look

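The treatment effect differed between the lines, by the MKN1 minus AGS contrast of edgeR's quasi-likelihood test, in 9 members and 3 pathway genes. On the log2 scale the difference was −2.246 for SLFN5, −1.827 for IFITM2, −1.338 for ISG15, −1.25 for IFITM1, −1.12 for STAT2, −1.055 for UBE2L6, −0.959 for OAS3, −0.931 for BST2 and −0.785 for IRF1. Among the pathway genes it was −0.736 for TYK2, −0.726 for IL10RB and 0.914 for TICAM1. In STAT2 the called effects had opposite directions, −0.62 in MKN1 and 0.499 in AGS. Groups of 3 libraries are too small for a test of single outlying libraries.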

How the results depend on the processing

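Of 1634 recomputed values of single genes, 1463 kept their side of the threshold, 114 no longer passed, 57 newly passed and 0 reversed a call. Estimates that were not called could change sign. SLFN5 in MKN1, for example, lay between −0.77 and 0.428 with a library left out. The median log2 fold change over the 47 members kept its sign under every alternative in MKN1, in the difference and between lines. In AGS the median (0.064), which includes members near the floor, was between −0.012 and 0.158 with a library left out and below 0 without untreated replicate 1 (−0.012) or treated replicate 2 (−0.008), against an SD of 0.076 between the medians of the untreated AGS libraries. Genes called in MKN1 (1358) numbered 2459 with DESeq2, 809 with no filter and 34 with the line fitted alone, and members called lower there (8) numbered 17 with DESeq2 and 0 with the line alone. Genes called in AGS (4214) numbered 8369 with the line alone, where 14 members were higher (4) and 6 lower (1), beside 23.3% and 25% of all genes. Members above 0 in the difference (0) numbered 1 with library totals, DESeq2 or a filter of 1 CPM in 3 libraries. The cause was not tested, but the line alone uses fewer samples and its own spread.

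Leaving out each library in turn, genes called ranged between 2051 and 2822 in AGS, 336 and 3160 in MKN1, and 2098 and 4646 in the difference. Members called higher in AGS ranged between 2 and 4, lower in MKN1 between 2 and 19, higher in MKN1 between 0 and 1, below 0 in the difference between 4 and 15, and above 0 between 0 and 1. The most genes in MKN1, 3160, were called without untreated replicate 3.

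Over all tested genes, same-numbered treated and untreated libraries correlated in their deviations from group means at 0.034, 0.076 and −0.05 in AGS. In MKN1 the correlations were 0.133, −0.053 and 0.224, so the numbers were not taken to pair the samples. Most members, however, were lowest in replicate 3 of both MKN1 groups and in replicate 1 of both AGS groups, which the fit without a block leaves in the spread. With the replicate number as a block, 19 members were lower in MKN1 (3.65% of all genes), 7 of them among the 8 called without it, 16 were below 0 in the difference (7.87% of all) and 6 were higher in AGS (9.44% of all). HERC5, IFIT1 and IFIT3 were among those called lower in MKN1 with the block and IFIT1 among those higher in AGS, whereas IFI35 in MKN1 (adjusted p = 0.0538) and SOCS1 in AGS (0.078) lost their calls. Pathway genes newly called with the block included RIGI, higher in AGS (0.704, adjusted p = 0.0155) and below 0 in the difference (−1.013, 0.0167). DHX58 was lower in MKN1 (−0.787, 0.0301) and below 0 in the difference (−0.969, 0.0264). Every library correlated best with its own number in neither line. At 28604966 counts or more per library, depth limits GBP2, HERC5, HERC6 and IDO1 in AGS.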
